A study of Mus musculus with 24 samples.

Results

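The genes of mitosis and cytokinesis described here are 40 genes that cells switch on as they enter and leave division: the mitotic cyclins and CDK1, the mitotic kinases, the spindle checkpoint, the kinetochore, the motors and scaffolds of the spindle and the machinery that separates the daughter cells. They were chosen by name, and each symbol was matched to 1 Ensembl identifier of the deposited gene counts, so that the 40 members were found among 52636 counted genes. All 40 passed the count filter, which left 14681 genes to test. The libraries came from mouse bone marrow-derived macrophages, cells grown from marrow in 50 ng/ml M-CSF, replated on day 5 and kept for 2 more days. There were 24 libraries in 8 groups of 3, and each library of a group came from a separate mouse. The groups combined 4 genotypes with no treatment or 8 h of R837 (imiquimod), which activates the endosomal RNA sensor TLR7.

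The genotypes were TBK1 wild type (TBK1-WT ∆control), TBK1 wild type lacking IKKe (TBK1-WT ∆IKKe), a conditional loss of TBK1 (TBK1-cKD ∆control), and both together (labelled TBK1-cKD ∆IKKe). TBK1 and IKKe, the latter encoded by Ikbke, are related kinases that act downstream of innate immune sensors. The labels call the TBK1 allele cKD and the series record calls it a conditional knockout. They do not describe the allele, how it was deleted or what ∆control cells received, and the protocol text repeated on all records gives wild-type C57BL/6N as the mice. Nothing in the labels pairs a library of 1 group with a library of another.

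As background, mitosis is driven by CDK1 bound to cyclins A and B, helped by the kinases PLK1 and Aurora A and B. The anaphase-promoting complex (APC/C) with CDC20 ends it, once the spindle checkpoint is satisfied, by marking cyclin B and securin for destruction. Transcription of this set peaks from G2 into mitosis through the cell cycle genes homology region (CHR), which the DREAM repressor or the activating MYB-MuvB complex with FOXM1 occupies, and through CCAAT boxes, which NF-Y binds. Bone marrow-derived macrophages divide in M-CSF, and many microbial stimuli stop that division. In RNA from whole cultures, fewer dividing cells and less of these RNAs in each cell cannot be told apart.

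Total counts over genes ranged from 19.7 to 41.3 M per library, with a median of 31.4 M, and the 40 members together took 6266 to 137349 counts of a library. Levels are given as CPM, counts per 1 M counts over genes. Changes are log2 differences with their SE from edgeR's quasi-likelihood fit over all 24 libraries. A gene is called where its p, adjusted over the 14681 tested genes by Benjamini-Hochberg, was under 0.05. Tbk1 RNA was lower in TBK1-cKD ∆control than in TBK1-WT ∆control (85.4, 82.4 and 80.3 against 117, 119 and 115 CPM untreated, log2 difference -0.45 ± 0.07, adjusted p = 0.000674). Ikbke stood at 41.0, 38.9 and 39.1 CPM in untreated TBK1-WT ∆IKKe against 67.7, 68.2 and 68.1 in untreated TBK1-WT ∆control (-0.76 ± 0.30, adjusted p = 1). Tbk1 stood at 117, 116 and 113 CPM in untreated TBK1-WT ∆IKKe and 94.0, 98.3 and 95.6 in untreated libraries labelled TBK1-cKD ∆IKKe, and after R837 at 147, 111 and 114 in TBK1-WT ∆control, 108, 114 and 106 for TBK1-WT ∆IKKe, 93.3, 85.4 and 96.9 for TBK1-cKD ∆control and 92.9, 93.8 and 117 for libraries labelled TBK1-cKD ∆IKKe. In untreated libraries labelled TBK1-cKD ∆IKKe Ikbke stood at 86.3, 83.3 and 87.9, not below the 80.0, 82.1 and 83.4 of untreated TBK1-cKD ∆control. That goes against the label, so these are named by their label only, and every direction drawn from them rests on the label. After R837 Ikbke stood at 401, 206 and 215 CPM in TBK1-WT ∆control, 69.8, 64.1 and 72.7 for TBK1-WT ∆IKKe, 217, 218 and 224 for TBK1-cKD ∆control and 62.6, 66.6 and 223 for libraries labelled TBK1-cKD ∆IKKe.

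The libraries also fell into 2 sets by 3 RNAs that stay in the nucleus, Malat1, Neat1 and Xist. Their mean log2 CPM split them into 14 libraries at 8.94 to 9.46, the high set, and 10 at 5.25 to 5.64. The high set held all 12 untreated libraries, replicate 1 of R837-treated TBK1-WT ∆control and replicate 3 of libraries labelled TBK1-cKD ∆IKKe after R837, which are also the R837 libraries of highest Ikbke in their groups. The share of mapped reads outside the gene counts was 10.8 to 11.99% in the high set and 8.41 to 8.93% in the low set. This level therefore moves with R837. Comparisons of treated libraries were refitted without those 2 R837 libraries and with the level as a term. Many of the values that move by much, above all those of Mki67, Cenpe and Cenpf, are given beside the results. They are not given for every comparison and setting.

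The promoters show what the members share before any level is read. RefSeq promoter entries, each 250 bases before and 50 bases from a start site, matched 34 of the 40 members. The CHR was searched as TTTGAA or TTCGAA and the CCAAT box as CCAAT, each on both strands. At least 1 CHR lay in 27 of the 34 (79.4%), against 21.7% of 27025 genes with a promoter entry and 16.8% of the tested genes. A CCAAT lay in 26 (76.5%), against 41.1% of all genes and 42.8% of those tested. Both lay in 24 of the 34 (70.6%), against 8.61% and 6.98%. Among other mitosis genes both were present in 43.1%, and among DNA replication genes in 15.2%. A CHR match within 50 bases of the start site was present in 25 of the 34 (73.5%), against 6.12% of all genes. Such a match shows that the letters are present and says nothing about binding.

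Among the 27 members with a CHR, the match nearest the start site lay between -103 and 40 bases from it, with the median 6 bases downstream. Of these matches 20 read on the gene's own strand. They include the only CHR of Bub1, TTCGAA, which reads the same on both strands. A CHR without a CCAAT was found for Ndc80, Kif2c and Anln, a CCAAT without a CHR for Ccnb1 and Cenpe, and neither for Melk, Birc5, Mad2l1, Nuf2 and Nusap1. In 1 pair of matches among the 34 promoters a CHR and a CCAAT overlapped.

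**Figure D1:**
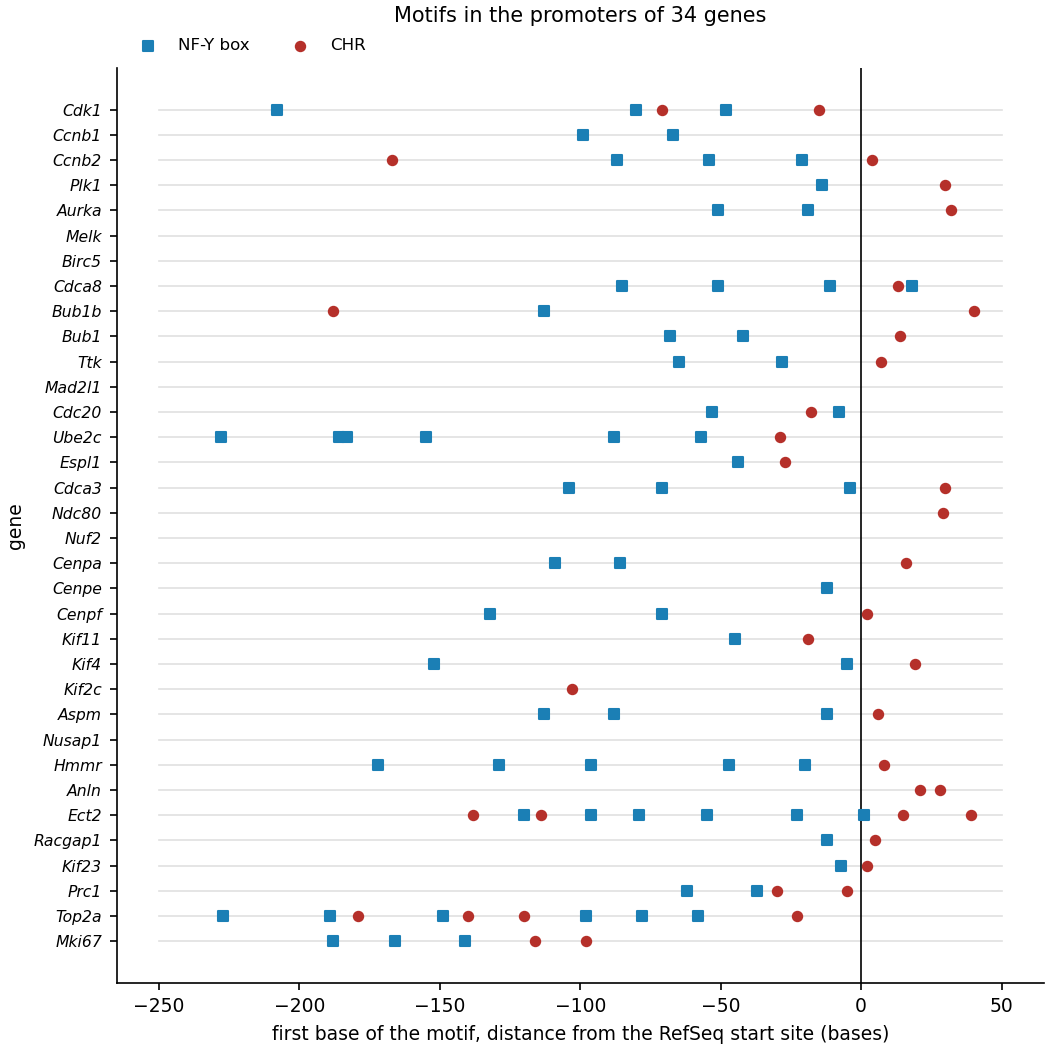
Position of CHR (TTTGAA or TTCGAA, circles) and CCAAT (NF-Y box, squares) matches in the RefSeq promoters of the 34 matched members, with the horizontal axis giving bases from the start site and 1 row per member. CHR matches gather near the start site, and the 5 members with neither motif have empty rows.

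The promoters of 5 members with both motifs, of different roles in mitosis, are printed from the RefSeq table (GRCm38.p6), 5′ to 3′ on the gene's strand. Capitals mark each CHR (read on either strand, so also TTCAAA) and each CCAAT (read as ATTGG from the other strand). The Cdk1 promoter (chr10:69352863-69353162, minus strand) has 2 CHR and 3 CCAAT matches. The others are those of Plk1 (chr7:122159185-122159484, plus strand), Bub1b (chr2:118597961-118598260, plus strand), Cdc20 (chr4:118437294-118437593, minus strand) and Kif11 (chr19:37376132-37376431, plus strand).
Cdk1: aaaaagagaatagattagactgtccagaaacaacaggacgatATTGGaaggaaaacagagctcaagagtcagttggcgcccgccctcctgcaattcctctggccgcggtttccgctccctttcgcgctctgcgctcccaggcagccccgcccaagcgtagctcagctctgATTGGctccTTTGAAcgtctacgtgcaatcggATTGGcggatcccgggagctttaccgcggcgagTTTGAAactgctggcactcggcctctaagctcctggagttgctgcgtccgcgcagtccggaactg
Plk1: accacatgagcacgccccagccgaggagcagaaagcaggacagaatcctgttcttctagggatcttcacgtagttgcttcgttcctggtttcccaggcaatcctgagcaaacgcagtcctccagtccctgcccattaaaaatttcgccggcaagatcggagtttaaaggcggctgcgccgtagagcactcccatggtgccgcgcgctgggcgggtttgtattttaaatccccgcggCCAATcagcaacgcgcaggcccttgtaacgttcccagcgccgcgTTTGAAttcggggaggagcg
Bub1b: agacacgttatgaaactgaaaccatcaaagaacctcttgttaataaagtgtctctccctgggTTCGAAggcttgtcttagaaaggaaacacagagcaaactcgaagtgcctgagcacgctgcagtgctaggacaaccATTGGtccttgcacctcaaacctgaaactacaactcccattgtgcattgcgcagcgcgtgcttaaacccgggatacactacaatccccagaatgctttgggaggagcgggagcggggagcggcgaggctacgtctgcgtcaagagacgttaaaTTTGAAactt
Cdc20: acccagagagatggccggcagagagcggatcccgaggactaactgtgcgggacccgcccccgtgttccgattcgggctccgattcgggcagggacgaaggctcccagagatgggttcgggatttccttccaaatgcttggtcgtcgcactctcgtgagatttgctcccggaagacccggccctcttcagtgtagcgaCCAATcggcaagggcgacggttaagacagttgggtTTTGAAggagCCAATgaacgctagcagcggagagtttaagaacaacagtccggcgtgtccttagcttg
Kif11: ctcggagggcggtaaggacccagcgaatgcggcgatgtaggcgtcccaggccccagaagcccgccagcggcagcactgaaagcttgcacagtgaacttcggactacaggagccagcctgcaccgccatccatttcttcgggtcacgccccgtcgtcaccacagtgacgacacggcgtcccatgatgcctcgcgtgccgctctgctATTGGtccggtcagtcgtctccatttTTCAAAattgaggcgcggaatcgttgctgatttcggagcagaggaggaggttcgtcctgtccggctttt

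The members' summed level was highest in untreated TBK1-WT ∆control and lowest in R837-treated libraries labelled TBK1-cKD ∆IKKe, 15.6-fold apart. The sum over the 40 genes was 3214 ± 144 CPM (SD, n = 3) in untreated TBK1-WT ∆control, 2942 ± 336 in TBK1-WT ∆IKKe, 2539 ± 235 in TBK1-cKD ∆control and 1972 ± 68.8 in libraries labelled TBK1-cKD ∆IKKe. After R837 the sums were 657 ± 107, 496 ± 42.6, 391 ± 25.7 and 207 ± 35.8 CPM. R837 thus went with sums 4.89-fold, 5.94-fold, 6.49-fold and 9.54-fold lower, in that order of genotypes. Gene by gene, every one of the 12 untreated libraries lay above every one of the 12 R837 libraries for all 40 members. How many of all tested genes separate in this way was not counted, here or where non-overlapping libraries are counted below. The order TBK1-WT ∆control, TBK1-WT ∆IKKe, TBK1-cKD ∆control, TBK1-cKD ∆IKKe from high to low held for the group means of 36 members untreated and of 35 after R837. The share of all tested genes in that order was not counted either. The first neighbours in that order, TBK1-WT ∆control and TBK1-WT ∆IKKe, overlapped for all 40 members untreated, and stood apart for 15 after R837.

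**Figure D2:**
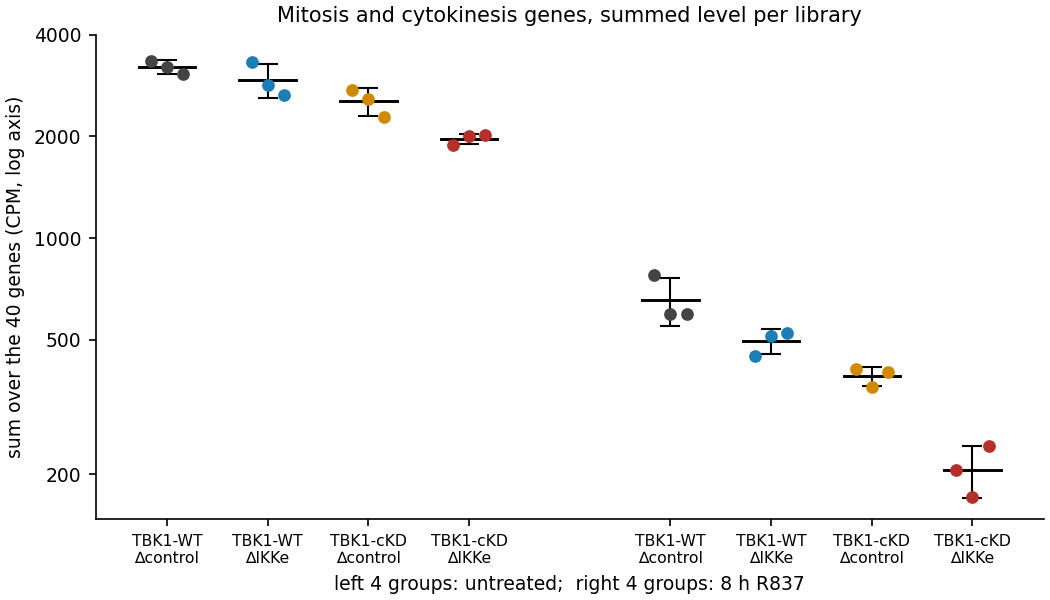
Summed CPM of the 40 members in each library on a log axis, by genotype, untreated and after 8 h of R837. Points are libraries and bars are group means with their SD. The 3 libraries labelled TBK1-cKD ∆IKKe sit at 171 to 243 CPM after R837, and those of untreated TBK1-WT ∆control at 3068 to 3356 CPM.

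Per length, in the authors' RPKM, the members spanned a wide range in untreated TBK1-WT ∆control. Top2a, the topoisomerase that untangles sister chromatids, was the highest at 64.9 ± 1.84 RPKM (SD, n = 3), followed by the proliferation marker Mki67 at 37.4 ± 2.27 and Ccna2, cyclin A, at 36.7 ± 1.10. The lowest were Ccnb1, cyclin B1, at 2.77 ± 0.402 and Depdc1b, a regulator of division and adhesion, at 3.94 ± 0.439. Ccnb2, cyclin B2, stood at 34.8 ± 2.44, far above Ccnb1. In libraries labelled TBK1-cKD ∆IKKe after R837 Top2a was still the highest at 3.85 ± 0.365 RPKM, while Depdc1b stood at 0.0796 ± 0.0820 and Aspm, a spindle pole protein, at 0.0799 ± 0.0319.

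All 40 members were lower after R837 in all 4 genotypes, and in each genotype the treated and untreated libraries did not overlap for any member. In TBK1-WT ∆IKKe and TBK1-cKD ∆control every treated library was of low nuclear RNA level and every untreated one of high level. Within these genotypes R837 and that level cannot be told apart. The median log2 change was -1.98 in TBK1-WT ∆control, -2.16 for TBK1-WT ∆IKKe, -2.35 for TBK1-cKD ∆control and -3.08 for libraries labelled TBK1-cKD ∆IKKe. Over all tested genes the medians were -0.04, -0.07, -0.08 and -0.07. Of all tested genes, 32%, 37.8%, 37.5% and 34.8% were called lower, so a fall by itself was common. The largest adjusted p among the members was 0.00142, 0.00234, 2.25e-05 and 0.000709. Cenpf fell most in TBK1-WT ∆control, by 3.32 on the log2 scale, and Aurka least, by 0.87. The first of these ranks differed with the nuclear RNA level. Once the fit included that level, Depdc1b (-3.03) fell further in TBK1-WT ∆control than Cenpf (-2.32). When the R837 libraries of high level were left out, Mki67 (-4.82) fell further than Cenpf (-4.45). Without scaling beyond the library total the median of all genes moved by -0.26, -0.31, -0.29 and -0.39, the members' medians moved with it to -2.24, -2.47, -2.64 and -3.47, and the share of called genes that were lower rose from 51.1 to 70.8% in TBK1-WT ∆control. Relative to all genes the members' median in TBK1-WT ∆control was -1.93 with either scaling.

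**Figure D3:**
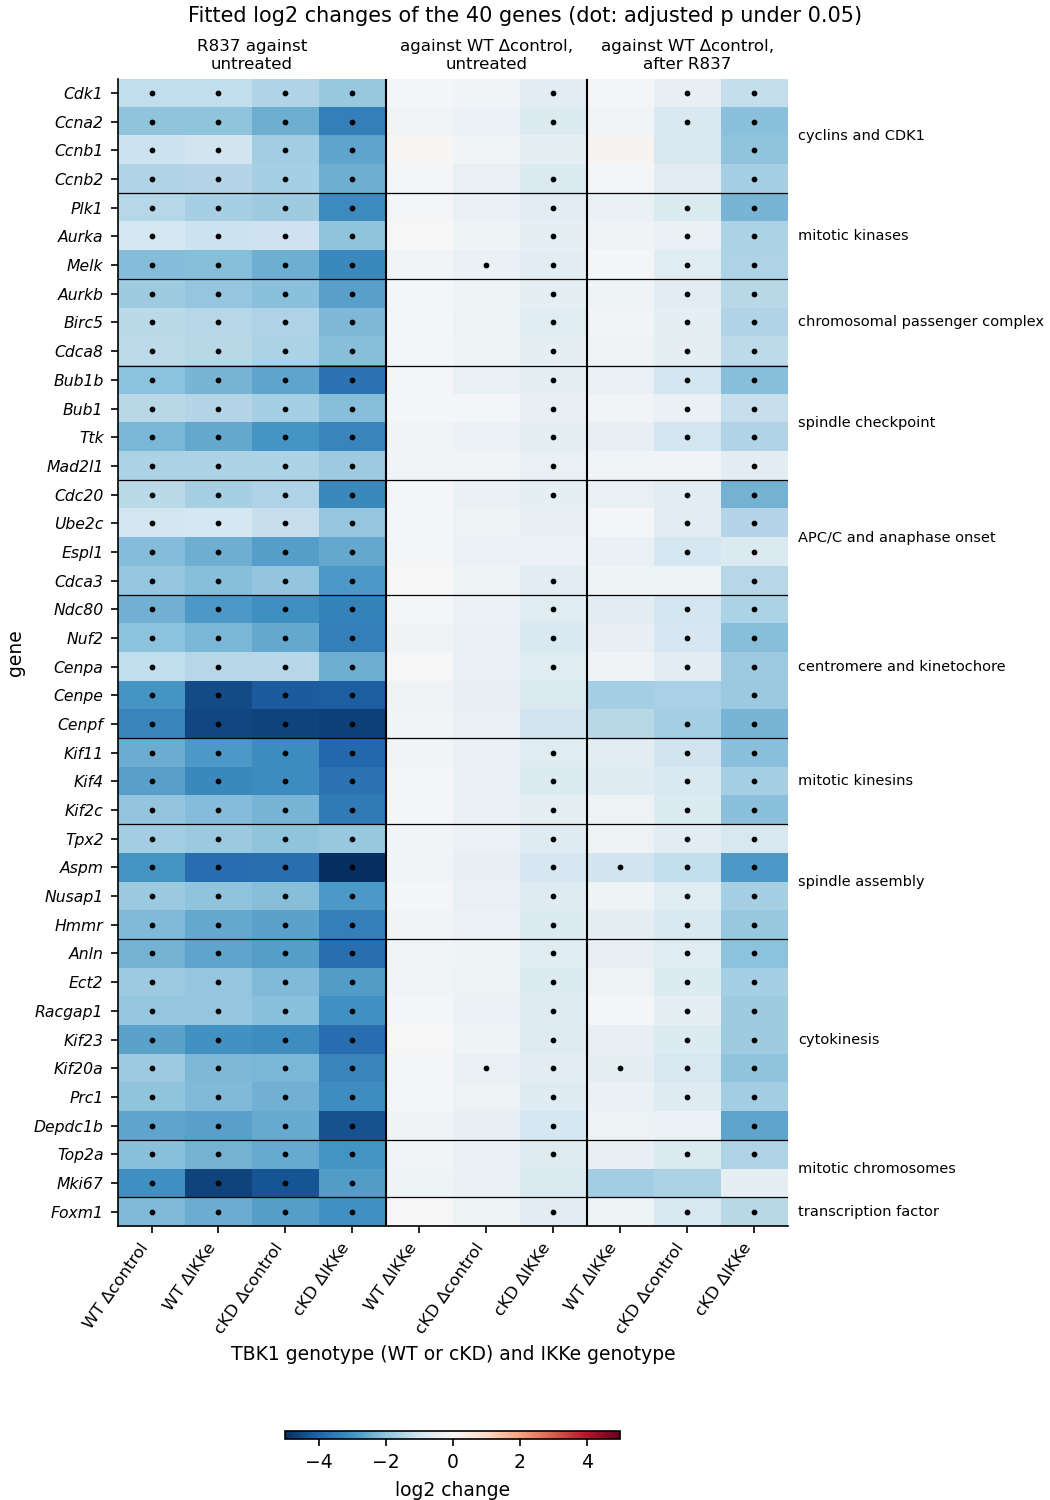
Colour map of the log2 change of each of the 40 members (rows, by role) in the comparisons named along the axis, with blue for lower, red for higher and a dot where the adjusted p is under 0.05. Every member is lower with R837 in every genotype, and the columns for the libraries labelled TBK1-cKD ∆IKKe after R837 are the darkest of the genotype comparisons for most members.

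The cyclins and CDK1 had a small median fall in TBK1-WT ∆control, although Ccna2 fell about as far as the median member. Cdk1 (ENSMUSG00000019942, chr10:69335146-69352938, minus strand), the kinase that drives entry into mitosis, stood untreated at 115, 111 and 108 CPM in TBK1-WT ∆control, 118, 98.1 and 99.6 for TBK1-WT ∆IKKe, 101, 99.0 and 92.6 for TBK1-cKD ∆control and 70.3, 75.8 and 75.5 for libraries labelled TBK1-cKD ∆IKKe. After R837 it stood at 37.2, 43.0 and 39.9 CPM, 32.2, 38.7 and 36.5 CPM, 30.0, 24.8 and 30.4 CPM and 17.8, 14.7 and 13.2 CPM in the same order of groups. The treated libraries lay below all untreated ones, and those labelled TBK1-cKD ∆IKKe lay below every other treated library. The log2 change of Cdk1 with R837 was -1.21 ± 0.11 (SE) in TBK1-WT ∆control, -1.24 ± 0.11 for TBK1-WT ∆IKKe, -1.49 ± 0.11 for TBK1-cKD ∆control and -1.88 ± 0.11 for libraries labelled TBK1-cKD ∆IKKe, which leaves 43.2% of the untreated level in the first and 27.1% in the last. Ccnb1 (ENSMUSG00000041431, chr13:100778650-100786570, minus strand) stood at 8.87, 7.97 and 6.59 CPM in TBK1-WT ∆control, 9.09, 8.02 and 7.04 for TBK1-WT ∆IKKe, 6.84, 7.84 and 5.90 for TBK1-cKD ∆control and 5.11, 5.68 and 5.53 for libraries labelled TBK1-cKD ∆IKKe, and after R837 at 2.78, 3.32 and 3.24 CPM, 2.81, 3.47 and 3.49 CPM, 2.20, 0.608 and 2.02 CPM and 1.07, 0.627 and 0.348 CPM in the same order of groups. Of the lead genes it was the lowest per length, and 1 R837-treated TBK1-cKD ∆control library lay within the range of libraries labelled TBK1-cKD ∆IKKe. With R837 Ccnb1 changed by -1.07 ± 0.26 (SE) in TBK1-WT ∆control and -2.63 ± 0.32 in libraries labelled TBK1-cKD ∆IKKe, and by -0.998 ± 0.27 and -1.72 ± 0.29 in TBK1-WT ∆IKKe and TBK1-cKD ∆control. Ccna2 changed by -2.00 ± 0.17 in TBK1-WT ∆control and -3.40 ± 0.19 in libraries labelled TBK1-cKD ∆IKKe, and Ccnb2 by -1.49 ± 0.18 and -2.46 ± 0.20.

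Of the kinases, Plk1 (ENSMUSG00000030867, chr7:122159439-122169873, plus strand) acts in centrosome maturation, spindle assembly and cytokinesis. It stood at 53.5, 48.6 and 48.7 CPM in TBK1-WT ∆control, 53.2, 45.1 and 41.1 for TBK1-WT ∆IKKe, 40.4, 38.5 and 34.2 for TBK1-cKD ∆control and 31.7, 31.9 and 31.9 for libraries labelled TBK1-cKD ∆IKKe, and after R837 at 13.9, 17.2 and 15.1 CPM, 10.3, 12.8 and 12.5 CPM, 9.27, 7.05 and 10.2 CPM and 3.78, 2.73 and 1.64 CPM in the same order of groups. The 3 libraries labelled TBK1-cKD ∆IKKe again lay below the other 9 treated ones. The fitted fall left 36.9% of the untreated level in TBK1-WT ∆control (log2 change -1.44 ± 0.17, SE) and 11.1% in libraries labelled TBK1-cKD ∆IKKe (-3.17 ± 0.20), with -1.66 ± 0.18 in TBK1-WT ∆IKKe and -1.79 ± 0.18 in TBK1-cKD ∆control. Aurka, the centrosomal Aurora kinase, changed by -0.87 ± 0.09 in TBK1-WT ∆control and -2.00 ± 0.10 in libraries labelled TBK1-cKD ∆IKKe, and Melk, a mitotic kinase, by -2.18 ± 0.10 and -3.22 ± 0.11. The chromosomal passenger complex corrects faulty attachments and later marks the cleavage site. Its kinase Aurkb (ENSMUSG00000020897, chr11:69045647-69051664, plus strand) stood at 55.4, 52.5 and 56.3 CPM in TBK1-WT ∆control, 56.3, 51.8 and 48.7 for TBK1-WT ∆IKKe, 47.9, 46.8 and 42.7 for TBK1-cKD ∆control and 35.7, 38.5 and 39.2 for libraries labelled TBK1-cKD ∆IKKe, and after R837 at 12.7, 13.8 and 13.8 CPM, 9.80, 12.3 and 11.2 CPM, 9.43, 8.16 and 8.95 CPM and 4.81, 3.87 and 4.52 CPM in the same order of groups. Treated groups followed the genotype order, with libraries labelled TBK1-cKD ∆IKKe at the bottom. On the log2 scale this was a change of -1.76 ± 0.09 (SE) in TBK1-WT ∆control, -1.92 ± 0.09 for TBK1-WT ∆IKKe, -2.08 ± 0.09 for TBK1-cKD ∆control and -2.71 ± 0.10 for libraries labelled TBK1-cKD ∆IKKe. Its partners Birc5, survivin, and Cdca8, borealin, changed by -1.36 ± 0.12 and -1.29 ± 0.09 in TBK1-WT ∆control, and by -2.26 ± 0.13 and -2.13 ± 0.10 in libraries labelled TBK1-cKD ∆IKKe.

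The spindle checkpoint holds anaphase until every kinetochore is attached. Bub1b (ENSMUSG00000040084, chr2:118598211-118641591, plus strand), which encodes BUBR1 of the mitotic checkpoint complex, stood at 85.6, 81.0 and 82.8 CPM in TBK1-WT ∆control, 89.1, 73.2 and 68.5 for TBK1-WT ∆IKKe, 66.2, 65.3 and 56.6 for TBK1-cKD ∆control and 55.9, 54.7 and 56.1 for libraries labelled TBK1-cKD ∆IKKe. In treated cells the values were 18.5, 16.003 and 15.9 CPM, 10.7, 13.1 and 13.3 CPM, 9.51, 6.18 and 8.95 CPM and 3.38, 2.67 and 3.82 CPM in the same order of groups. All 3 TBK1-WT ∆control libraries then lay above all others, and the libraries labelled TBK1-cKD ∆IKKe lay below all others. Its R837 response was -2.04 ± 0.12 (SE) in TBK1-WT ∆control and -3.69 ± 0.14 in libraries labelled TBK1-cKD ∆IKKe, with TBK1-WT ∆IKKe (-2.33 ± 0.13) and TBK1-cKD ∆control (-2.62 ± 0.13) beside them. The kinases Bub1 and Ttk changed by -1.39 ± 0.10 and -2.28 ± 0.15 in TBK1-WT ∆control, and by -2.11 ± 0.11 and -3.31 ± 0.18 in libraries labelled TBK1-cKD ∆IKKe. Mad2l1, the MAD2 protein, changed by -1.60 ± 0.11 and -1.81 ± 0.12, the smallest difference between these genotypes in this role. Cdc20 (ENSMUSG00000006398, chr4:118432901-118437352, minus strand), the activator of the APC/C, stood at 35.9, 36.1 and 36.0 CPM in TBK1-WT ∆control, 41.5, 33.8 and 28.2 for TBK1-WT ∆IKKe, 30.3, 27.5 and 25.7 for TBK1-cKD ∆control and 23.1, 24.8 and 25.5 for libraries labelled TBK1-cKD ∆IKKe. With R837 they were 11.0, 12.2 and 12.2 CPM, 8.36, 7.72 and 10.1 CPM, 7.20, 9.58 and 6.63 CPM and 2.10, 2.13 and 1.76 CPM in the same order of groups. The libraries labelled TBK1-cKD ∆IKKe lay close together and below the other 9. R837 left 39.4% of the untreated Cdc20 level in TBK1-WT ∆control (-1.34 ± 0.13, SE), 31.4% for TBK1-WT ∆IKKe (-1.67 ± 0.13), 33.9% for TBK1-cKD ∆control (-1.56 ± 0.14) and 10.7% in libraries labelled TBK1-cKD ∆IKKe (-3.23 ± 0.15). Ube2c, the ubiquitin-conjugating enzyme of the APC/C, changed by -0.92 ± 0.15 and -1.94 ± 0.16 in TBK1-WT ∆control and libraries labelled TBK1-cKD ∆IKKe. Espl1, the separase that cuts cohesin, changed by -2.17 ± 0.18 and -2.57 ± 0.19, and Cdca3, a trigger of entry into mitosis, by -1.94 ± 0.13 and -2.85 ± 0.14.

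Kinetochore and motor genes had larger median falls than the cyclins. Ndc80 (ENSMUSG00000024056, chr17:71496100-71526857, minus strand), whose product binds microtubules at the outer kinetochore, stood at 32.9, 29.7 and 29.0 CPM in TBK1-WT ∆control, 33.9, 25.9 and 26.8 for TBK1-WT ∆IKKe, 26.8, 26.3 and 19.5 for TBK1-cKD ∆control and 18.2, 18.9 and 19.2 for libraries labelled TBK1-cKD ∆IKKe, and after R837 at 5.54, 4.37 and 4.42 CPM, 3.10, 3.11 and 3.23 CPM, 2.55, 1.72 and 2.67 CPM and 1.49, 1.31 and 1.34 CPM in the same order of groups. TBK1-WT ∆control was the highest treated group and did not overlap TBK1-WT ∆IKKe, which did not overlap TBK1-cKD ∆control. The log2 change of Ndc80 with R837 was -2.40 ± 0.13 (SE) in TBK1-WT ∆control, -2.89 ± 0.14 for TBK1-WT ∆IKKe, -3.06 ± 0.14 for TBK1-cKD ∆control and -3.38 ± 0.15 for libraries labelled TBK1-cKD ∆IKKe, which leaves 18.9% of the untreated level in the first and 9.62% in the last. Its partner Nuf2 changed by -2.06 ± 0.17 in TBK1-WT ∆control and -3.43 ± 0.21 in libraries labelled TBK1-cKD ∆IKKe, and Cenpa, the centromeric histone H3 variant, by -1.22 ± 0.13 and -2.43 ± 0.14. Kif11 (ENSMUSG00000012443, chr19:37376403-37421859, plus strand), the kinesin that pushes spindle poles apart, stood at 102, 97.3 and 91.2 CPM in TBK1-WT ∆control, 97.0, 82.0 and 82.7 for TBK1-WT ∆IKKe, 82.1, 76.5 and 66.4 for TBK1-cKD ∆control and 56.7, 60.3 and 60.8 for libraries labelled TBK1-cKD ∆IKKe. The R837-treated libraries held 18.0, 12.2 and 12.8 CPM, 8.36, 9.93 and 10.3 CPM, 7.46, 5.37 and 7.69 CPM and 3.26, 2.32 and 3.28 CPM in the same order of groups. Treated groups again stepped down by genotype, and replicate 1 of TBK1-WT ∆control, of high nuclear RNA level, was the highest. With R837 Kif11 changed by -2.49 ± 0.14 (SE) in TBK1-WT ∆control and -3.94 ± 0.15 in libraries labelled TBK1-cKD ∆IKKe, and by -2.88 ± 0.14 and -3.15 ± 0.14 in TBK1-WT ∆IKKe and TBK1-cKD ∆control. Kif4, a chromosome-bound kinesin, changed by -2.70 ± 0.19 and -3.69 ± 0.21, and the microtubule-destabilising kinesin Kif2c by -1.96 ± 0.13 and -3.54 ± 0.15.

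Tpx2 (ENSMUSG00000027469, chr2:152847964-152895321, plus strand), which activates Aurora A on the spindle, had the narrowest range of R837 responses over the 4 genotypes among the lead members. It stood at 105, 101 and 96.6 CPM in TBK1-WT ∆control, 106, 86.7 and 81.0 for TBK1-WT ∆IKKe, 86.8, 83.5 and 72.1 for TBK1-cKD ∆control and 59.9, 62.2 and 62.2 for libraries labelled TBK1-cKD ∆IKKe, and after R837 at 28.8, 23.0 and 24.3 CPM, 18.8, 21.2 and 21.3 CPM, 17.6, 12.9 and 18.0 CPM and 13.3, 10.7 and 13.9 CPM in the same order of groups. Libraries of TBK1-cKD ∆control and those labelled TBK1-cKD ∆IKKe overlapped after R837. Its R837 response was -1.73 ± 0.12 (SE) in TBK1-WT ∆control and -1.89 ± 0.12 in libraries labelled TBK1-cKD ∆IKKe, with TBK1-WT ∆IKKe (-1.84 ± 0.12) and TBK1-cKD ∆control (-2.02 ± 0.12) beside them. Of the other spindle assembly genes Nusap1 changed by -1.86 ± 0.12 in TBK1-WT ∆control and -2.86 ± 0.13 in libraries labelled TBK1-cKD ∆IKKe, and Hmmr, the hyaluronan-mediated motility receptor of the spindle pole, by -2.20 ± 0.16 and -3.41 ± 0.18. Aspm changed by -2.98 ± 0.21 and -4.98 ± 0.27, the latter being the largest fall of any member in libraries labelled TBK1-cKD ∆IKKe. That rank differed with the nuclear RNA level. With the level as a term Depdc1b (-4.79) fell further there than Aspm (-4.41). Without the R837 libraries of high level Cenpf (-5.71) and Cenpe (-5.42) fell further than Aspm (-5.30).

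For cytokinesis, Anln (ENSMUSG00000036777, chr9:22332012-22389188, minus strand), the anillin scaffold of the contractile ring, stood at 108, 103 and 99.2 CPM in TBK1-WT ∆control, 105, 90.5 and 84.9 for TBK1-WT ∆IKKe, 94.1, 86.8 and 79.2 for TBK1-cKD ∆control and 59.6, 66.5 and 64.3 for libraries labelled TBK1-cKD ∆IKKe. After R837 it stood at 19.6, 15.1 and 15.7 CPM, 10.7, 13.3 and 12.3 CPM, 10.4, 10.5 and 10.2 CPM and 3.72, 2.59 and 4.34 CPM in the same order of groups. Treated TBK1-WT ∆control, TBK1-cKD ∆control and libraries labelled TBK1-cKD ∆IKKe did not overlap. The fitted fall left 19.5% of the untreated level in TBK1-WT ∆control (log2 change -2.36 ± 0.12, SE) and 7.33% in libraries labelled TBK1-cKD ∆IKKe (-3.77 ± 0.13), with -2.64 ± 0.12 in TBK1-WT ∆IKKe and -2.77 ± 0.12 in TBK1-cKD ∆control. The centralspindlin genes Kif23 and Racgap1 changed by -2.66 ± 0.15 and -1.93 ± 0.12 in TBK1-WT ∆control, and by -3.82 ± 0.17 and -3.04 ± 0.13 in libraries labelled TBK1-cKD ∆IKKe. Ect2, the RhoA activator they recruit, changed by -1.80 ± 0.12 and -2.78 ± 0.14. Prc1, which bundles midzone microtubules, changed by -1.99 ± 0.10 and -3.12 ± 0.10, the midzone kinesin Kif20a by -1.81 ± 0.10 and -3.30 ± 0.11, and Depdc1b by -2.63 ± 0.25 and -4.37 ± 0.34.

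Top2a (ENSMUSG00000020914, chr11:98992943-99024189, minus strand) stood at 392, 389.6 and 371 CPM in TBK1-WT ∆control, 381, 328 and 315 for TBK1-WT ∆IKKe, 331, 301 and 266 for TBK1-cKD ∆control and 219.5, 238 and 238 for libraries labelled TBK1-cKD ∆IKKe, and after R837 at 96.5, 62.4 and 66.3 CPM, 48.2, 55.9 and 58.2 CPM, 44.1, 40.6 and 44.9 CPM and 22.1, 19.8 and 24.6 CPM in the same order of groups. Replicate 1 of treated TBK1-WT ∆control lay above its 2 companions, and libraries labelled TBK1-cKD ∆IKKe lay below every other treated library. On the log2 scale this was a change of -2.09 ± 0.11 (SE) in TBK1-WT ∆control, -2.35 ± 0.12 for TBK1-WT ∆IKKe, -2.50 ± 0.12 for TBK1-cKD ∆control and -3.00 ± 0.12 for libraries labelled TBK1-cKD ∆IKKe. Foxm1 (ENSMUSG00000001517, chr6:128362967-128376146, plus strand), the forkhead factor that works with MYB-MuvB at CHR promoters, stood at 72.3, 74.2 and 71.1 CPM in TBK1-WT ∆control, 80.6, 69.7 and 63.2 for TBK1-WT ∆IKKe, 63.3, 60.8 and 52.2 for TBK1-cKD ∆control and 45.6, 47.2 and 48.2 for libraries labelled TBK1-cKD ∆IKKe. Treated libraries gave 15.7, 12.002 and 11.4 CPM, 9.34, 10.0 and 11.8 CPM, 8.95, 3.75 and 8.37 CPM and 4.30, 3.76 and 5.04 CPM in the same order of groups. Replicate 2 of treated TBK1-cKD ∆control lay as low as the lowest of libraries labelled TBK1-cKD ∆IKKe. R837 left 21.6% of the untreated Foxm1 level in TBK1-WT ∆control (-2.21 ± 0.18, SE), 18.1% for TBK1-WT ∆IKKe (-2.46 ± 0.18), 15.0% for TBK1-cKD ∆control (-2.74 ± 0.19) and 12.2% in libraries labelled TBK1-cKD ∆IKKe (-3.04 ± 0.19). Mki67 (ENSMUSG00000031004, chr7:135689784-135716361, minus strand), whose product coats mitotic chromosomes, stood at 442, 442 and 396 CPM in TBK1-WT ∆control, 412, 357 and 334 for TBK1-WT ∆IKKe, 365, 329 and 293 for TBK1-cKD ∆control and 224, 245 and 257 for libraries labelled TBK1-cKD ∆IKKe. The values after R837 were 105, 10.1 and 13.8 CPM, 12.2, 8.79 and 15.0 CPM, 12.2, 14.7 and 13.9 CPM and 9.29, 10.8 and 61.5 CPM in the same order of groups. The 2 treated libraries of high nuclear RNA level stood well above all other treated ones, so its fold changes in those groups average unlike libraries. With R837 Mki67 changed by -3.07 ± 0.65 (SE) in TBK1-WT ∆control and -2.79 ± 0.64 in libraries labelled TBK1-cKD ∆IKKe, and by -4.62 ± 0.71 and -4.31 ± 0.70 in TBK1-WT ∆IKKe and TBK1-cKD ∆control.

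**Figure D4:**
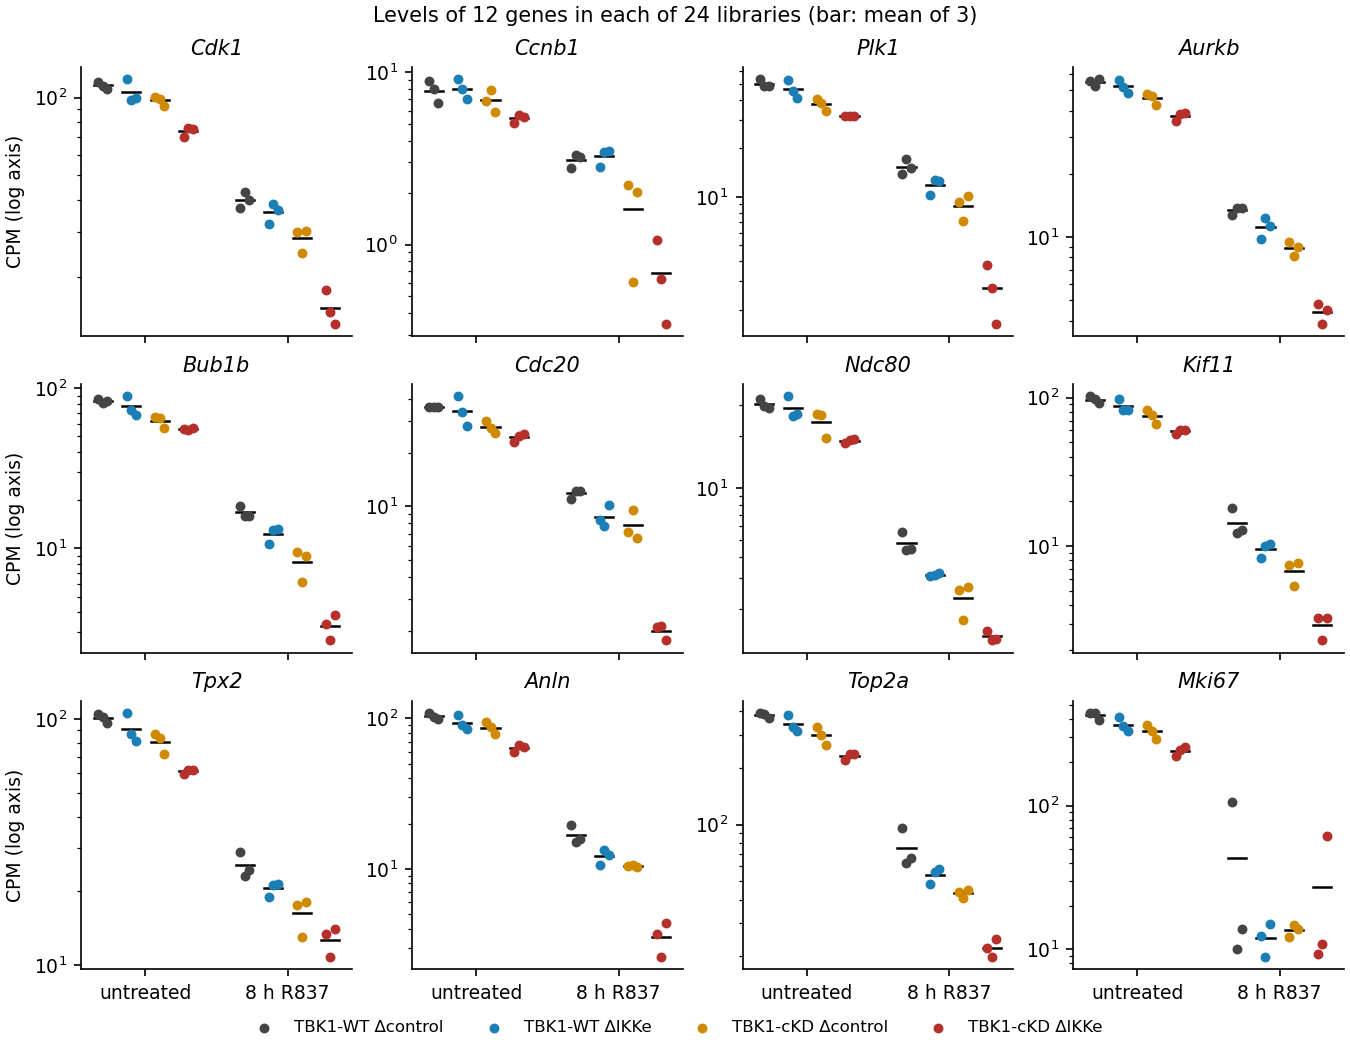
CPM of 12 lead members in each library on a log axis, 1 panel per gene, with untreated libraries on the left, R837-treated ones on the right, colours for the 4 genotypes and bars for group means. Treated libraries lie below untreated ones in every panel, and Mki67 is the panel in which 1 treated library of TBK1-WT ∆control and 1 of those labelled TBK1-cKD ∆IKKe stand far above their groups.

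By role, the median change with R837 in TBK1-WT ∆control ran from -1.35 for the cyclins and CDK1, -1.36 for the passenger complex and -1.44 for the kinases to -2.40 for the kinetochore and -2.49 for the kinesins, with -2.58 for the pair of Top2a and Mki67. Checkpoint genes (-1.82), APC/C genes (-1.64), cytokinesis genes (-1.99) and spindle assembly genes (-2.03) lay between. In libraries labelled TBK1-cKD ∆IKKe the cyclins and CDK1 stood at -2.55, the passenger complex at -2.26 and the kinases at -3.17. The kinetochore stood there at -3.43, the kinesins at -3.69 and the pair of Top2a and Mki67 at -2.89. Checkpoint and APC/C genes stood at -2.71 each, cytokinesis genes at -3.30 and spindle assembly genes at -3.14. The medians of the pair include Mki67, whose change differed with the nuclear RNA level. The 24 members with both a CHR and a CCAAT had a median change of -1.97 in TBK1-WT ∆control, and the 10 matched members without both had -2.01. In TBK1-WT ∆IKKe the largest falls were those of Mki67 (-4.62 ± 0.71), Cenpf (-4.56 ± 0.47) and Cenpe (-4.47 ± 0.57), and the smallest that of Ube2c (-0.88 ± 0.15). In TBK1-cKD ∆control they were Cenpf (-4.65 ± 0.49), Mki67 and Cenpe (-4.17 ± 0.57), with Aurka the smallest (-1.05 ± 0.09). The nuclear RNA level split treated from untreated libraries in both genotypes, and the largest falls differed with it. Once the fit included that level, Mki67, Cenpf and Cenpe stood at -1.82, -2.39 and -1.90 in TBK1-WT ∆IKKe. Depdc1b (-3.35) and Aspm (-2.76) fell further there. In TBK1-cKD ∆control Mki67, Cenpf and Cenpe then stood at -1.52, -2.49 and -1.60, beside -3.16 for Depdc1b and -2.70 for Aspm.

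Among untreated cells, the members were lower in libraries labelled TBK1-cKD ∆IKKe and did not detectably differ in TBK1-WT ∆IKKe. Against TBK1-WT ∆control, TBK1-WT ∆IKKe had 0 members called by edgeR, 0 at an unadjusted p under 0.05 and 0 by DESeq2, with 0% of all tested genes called. The members' median there was -0.10, and Cdca3 had the smallest change (-0.01 ± 0.13). In TBK1-cKD ∆control all 40 estimates were below 0 with a median of -0.30, and for 37 members the 3 libraries lay below the 3 of TBK1-WT ∆control. The share of all tested genes that separate so was not counted. Only Kif20a (-0.34 ± 0.09, adjusted p = 0.0412) and Melk (-0.33 ± 0.09, adjusted p = 0.0292) were called by edgeR, where 2.65% of all genes were called lower. Bub1 had the smallest change (-0.07 ± 0.10). Leaving out any 1 of replicates 1, 2 or 3 of TBK1-WT ∆control or of replicates 2 or 3 of TBK1-cKD ∆control left 0 calls. When only the 2 groups were fitted, with their own spread, 36 members were called, and DESeq2 called 6. The 2.65% belongs to the edgeR fit of all 24 libraries, and no such share is given for these fits.

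In libraries labelled TBK1-cKD ∆IKKe, 34 of the 40 members were called lower than in untreated TBK1-WT ∆control, against 5.1% of all tested genes, and all 40 had non-overlapping libraries. The median was -0.61, and 0.00 over all genes. The largest called changes were those of Depdc1b (-0.89 ± 0.22, adjusted p = 0.00801), Aspm (-0.86 ± 0.19, adjusted p = 0.00359) and Nuf2 (-0.77 ± 0.16, adjusted p = 0.00212), and the smallest estimate was that of Espl1 (-0.31 ± 0.17). Without replicate 1 of TBK1-WT ∆control Depdc1b was no longer called (adjusted p = 0.0525). Ccnb1, Ube2c, Espl1, Cenpe, Cenpf and Mki67 did not pass, with estimates of -0.44 ± 0.25, -0.43 ± 0.15, -0.31 ± 0.17, -0.72 ± 0.46, -0.98 ± 0.38 and -0.73 ± 0.60. With only these 2 groups in the fit, where the SE no longer drew on the divided R837 groups, all 40 were called. No share of all genes is given for that fit. Against TBK1-WT ∆IKKe, 30 members were called lower, with a median of -0.51, where 3.83% of all genes were. Depdc1b (-0.73 ± 0.22), Aspm (-0.70 ± 0.19) and Ccnb2 (-0.65 ± 0.18) led, and Mad2l1 (-0.23 ± 0.11) changed least. Leaving out any 1 of the 6 libraries ended the call of Depdc1b, 4 of them that of Aspm and 3 that of Ccnb2. Without replicate 1 of TBK1-WT ∆IKKe 15 were called, and without replicate 1 of libraries labelled TBK1-cKD ∆IKKe 17.

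Against untreated TBK1-cKD ∆control, 7 members were called lower in libraries labelled TBK1-cKD ∆IKKe, where 3.58% of all genes were, with a median of -0.32 and 33 members of non-overlapping libraries. These were Anln (-0.41 ± 0.11), Ect2 (-0.42 ± 0.12), Prc1 (-0.37 ± 0.09), Cdk1, Bub1, Racgap1 and Tpx2, and Espl1 had the smallest change (0.00 ± 0.17). That count was unstable. It was 0 without replicate 1 of TBK1-cKD ∆control, 1 without replicate 1 of libraries labelled TBK1-cKD ∆IKKe, 2 without replicate 2 of either group, 4 without replicate 3 of libraries labelled TBK1-cKD ∆IKKe and 32 when only the 2 groups were fitted.

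After R837, 2, 33 and 39 of the 40 members were called lower than in treated TBK1-WT ∆control in TBK1-WT ∆IKKe, TBK1-cKD ∆control and libraries labelled TBK1-cKD ∆IKKe, respectively. In TBK1-WT ∆IKKe, against treated TBK1-WT ∆control, the 2 were Aspm (-0.99 ± 0.23, adjusted p = 0.0278) and Kif20a (-0.49 ± 0.10, adjusted p = 0.00938), where 0.708% of all genes were. The median was -0.27, 39 of 40 estimates were below 0, and 15 members had non-overlapping libraries. Ccnb2 changed least (-0.04 ± 0.18). Neither call held in every setting. There were 0 calls without replicate 1 of TBK1-WT ∆control, which had the high nuclear RNA level, 0 without replicate 1 or replicate 2 of TBK1-WT ∆IKKe, 1 without replicate 3 of TBK1-WT ∆IKKe, 7 without replicate 2 of TBK1-WT ∆control, 9 by DESeq2 and 0 when only the 2 groups were fitted.

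In treated TBK1-cKD ∆control, 33 members were called lower than in treated TBK1-WT ∆control, where 4.41% of all genes were, with a median of -0.68 and 35 members of non-overlapping libraries. The largest called changes were in Cenpf (-1.72 ± 0.49, adjusted p = 0.0323), Aspm (-1.22 ± 0.24, adjusted p = 0.00225) and Kif11 (-0.98 ± 0.14, adjusted p = 0.000153), and Mad2l1 changed least (-0.12 ± 0.12). The 7 not called were Ccnb1, Ccnb2, Cdca3, Cenpe, Depdc1b, Mad2l1 and Mki67. The sizes for Cenpf and Aspm rest in part on replicate 1 of TBK1-WT ∆control, the library of high nuclear RNA level, without which they stood at -0.55 (adjusted p = 0.488, no longer called) and -0.73, and Mki67 turned from -1.58 to 0.21. Without that library 26 members were called, without both R837 libraries of high nuclear RNA level 32, and without replicate 2 of TBK1-cKD ∆control, which had the fewest counts and 14226 genes with a count, 27. With only these 2 groups fitted, 0 were called.

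The libraries labelled TBK1-cKD ∆IKKe held the lowest treated levels, with 39 of 40 members called lower than in treated TBK1-WT ∆control, against 15.5% of all tested genes. The median was -1.68 and the all-gene median -0.01, and 37 members had non-overlapping libraries. Their summed level was 31.4% of that in TBK1-WT ∆control, while TBK1-WT ∆IKKe stood at 75.4% and TBK1-cKD ∆control at 59.6%. Aspm (-2.86 ± 0.27, adjusted p = 3.89e-08), Depdc1b (-2.64 ± 0.38, adjusted p = 1.15e-05) and Cdc20 (-2.36 ± 0.15, adjusted p = 1.23e-10) changed most. Depdc1b rests on few reads there, at 0.0745 CPM in replicate 3 of the labelled libraries and a mean of 0.298 in its companions. Among the other lead members, the change was -2.31 ± 0.20 in Plk1, -2.15 ± 0.14 in Bub1b, -2.07 ± 0.15 in Kif11 and -1.18 ± 0.11 in Cdk1. Mki67 was the exception (-0.46 ± 0.61, adjusted p = 0.647), and without replicate 1 of TBK1-WT ∆control its estimate turned to 1.32. By role the medians were -1.84 for the cyclins and CDK1, -1.59 for the kinases, -1.33 for the checkpoint, -1.87 for the kinetochore, -2.07 for the kinesins and -1.78 for cytokinesis. All 7 cytokinesis and all 5 kinetochore genes were called lower. The kinetochore count rests in part on replicate 1 of TBK1-WT ∆control, without which Cenpe moved from -1.87 to -0.39 (adjusted p = 0.511) and Cenpf from -2.31 to -1.14 (adjusted p = 0.0197). Cenpe was also not called without replicate 1 or replicate 2 of libraries labelled TBK1-cKD ∆IKKe. Without both R837 libraries of high level Cenpe stood at -1.75, Cenpf at -2.24 and Mki67 at -0.01, the first pair called.

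The same libraries were also below both single genotypes. Against treated TBK1-WT ∆IKKe, 36 members were called lower, where 14.2% of all genes were, with a median of -1.40 and Depdc1b (-2.37 ± 0.40), Ccnb1 (-2.13 ± 0.33) and Plk1 (-1.99 ± 0.20) in the lead. The 4 not called were Espl1 (-0.36 ± 0.20), Cenpe (-0.19 ± 0.63), Cenpf (-0.93 ± 0.56) and Mki67 (1.30 ± 0.65). Without the R837 libraries of high nuclear RNA level Cenpe (-1.55, adjusted p = 8.35e-05) and Cenpf (-2.05, adjusted p = 1.94e-05) were called lower, and Mki67 turned to -0.07. Against treated TBK1-cKD ∆control, 35 were called lower, where 16.2% of all genes were, with a median of -1.07. Depdc1b (-2.33 ± 0.40), Cdc20 (-1.81 ± 0.16) and Aspm (-1.64 ± 0.30) led, and Espl1 had the smallest change (0.17 ± 0.20). Tpx2 (-0.22 ± 0.12), Cenpe (-0.26 ± 0.63), Cenpf (-0.60 ± 0.58) and Mki67 (1.12 ± 0.65) did not pass there either. Here too Cenpe (-1.62, adjusted p = 4.39e-05) and Cenpf (-1.70, adjusted p = 0.000307) were called without those libraries, and Mki67 turned to -0.23.

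The R837 response itself was tested for a difference from that of TBK1-WT ∆control. In TBK1-WT ∆IKKe, 0 members differed by edgeR at the adjusted threshold, where 0.245% of all genes were called, and 0 by DESeq2. At an unadjusted p under 0.05 there were 4. The members' median difference was -0.22, with Racgap1 the smallest (0.00 ± 0.17). In TBK1-cKD ∆control, 0 differed by edgeR at the adjusted threshold, where 0.879% of all genes were called, and 2 by DESeq2. At an unadjusted p under 0.05 there were 15. The median was -0.40, with Mad2l1 the smallest (0.02 ± 0.16). The share of all genes at the unadjusted threshold is not given for either genotype. In libraries labelled TBK1-cKD ∆IKKe, the fall was larger for 34 of the 40 members, where 9.96% of all genes were called in that direction, with a median difference of -1.08 and -0.04 over all genes. Aspm (-2.00 ± 0.34, adjusted p = 0.000181), Cdc20 (-1.88 ± 0.20, adjusted p = 5.23e-07) and Depdc1b (-1.74 ± 0.45, adjusted p = 0.00934) differed most. The smallest difference was in Tpx2 (-0.16 ± 0.16), and Cenpf (-1.33 ± 0.64), Cenpe (-1.15 ± 0.73), Espl1 (-0.40 ± 0.26), Mad2l1 (-0.21 ± 0.16) and Mki67 (0.28 ± 0.85) did not pass. Without the R837 libraries of high nuclear RNA level Cenpf (-1.26, adjusted p = 0.0115) and Cenpe (-1.03, adjusted p = 0.0154) passed as lower and Mki67 (0.72, adjusted p = 0.0134) as higher. Without replicate 1 of treated TBK1-WT ∆control alone, Cenpe turned to 0.33 and Mki67 was called at 2.06 (adjusted p = 0.0185). Without replicate 3 of treated libraries labelled TBK1-cKD ∆IKKe alone, Cenpe was called at -2.55, Cenpf at -2.47, and Mki67 stood at -1.11. These 3 tests share the TBK1-WT ∆control libraries.

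Whether the TBK1 and IKKe differences added up was tested as the cKD difference among the ∆IKKe groups less that among the ∆control groups. Untreated, 0 members were called by edgeR at the adjusted threshold, where 4.69% of all genes were, and 0 by DESeq2, with a median of -0.24. At an unadjusted p under 0.05 there were 3 members, again without a share of all genes. With only the 4 untreated groups fitted, 7 were called, and without replicate 1 of TBK1-WT ∆IKKe the median was -0.14. Bub1b was closest to additive (-0.04 ± 0.17). After R837, 26 members were lower than the sum of the 2 single differences on the log2 scale, where 8.9% of all genes were, and 1 was higher, as were 13.3% of all genes. The median was -0.72. Among the members called lower, Depdc1b (-2.06 ± 0.51, adjusted p = 0.00737), Cdc20 (-1.44 ± 0.21, adjusted p = 6.37e-05) and Ccnb1 (-1.33 ± 0.45, adjusted p = 0.0378) departed most. Ccnb1 lost its call when any of 7 of the 12 libraries was left out, and Depdc1b stood at -1.40 (adjusted p = 0.0563) without the R837 libraries of high level. Tpx2 was additive within its error (0.03 ± 0.17). All 4 cyclin and CDK1 genes and all 7 cytokinesis genes were among the 26. The 1 higher was Mki67 (2.87 ± 0.92). It turned to -0.28, and Cenpe and Cenpf from 1.42 and 0.78 to -1.43 and -1.50, without the R837 libraries of high nuclear RNA level. With only the 4 treated groups fitted, 15 were called lower.

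Some members moved with the nuclear RNA level inside a treated group. In treated TBK1-WT ∆control, Mki67 stood at 105 CPM in the library of high level and at 10.1 and 13.8 in the other 2, a ratio of 8.82 to their mean. In treated libraries labelled TBK1-cKD ∆IKKe it stood at 61.5 against 9.29 and 10.8, a ratio of 6.12. Cenpe, a kinetochore motor, had ratios of 6.43 and 5.91, Cenpf, a large kinetochore protein, 4.82 and 4.43, Aspm 2.29 and 1.95 and Kif4 1.73 and 1.87. The median over the 40 members was 1.12 and 1.02. In TBK1-WT ∆control 21 members were above both companion libraries, 4 between and 15 below, and in libraries labelled TBK1-cKD ∆IKKe 18, 7 and 15. Cenpf (11130 exon bases), Mki67 (10061), Aspm (9870) and Cenpe (7910) are among the 5 members of greatest exon width, while Mad2l1 (8032) had ratios of 0.913 and 0.815. Across the 40 members the ratio and the width had a Spearman rho of 0.69 in TBK1-WT ∆control and 0.66 in libraries labelled TBK1-cKD ∆IKKe. Each of these is a description of 1 library against 2.

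**Figure D5:**
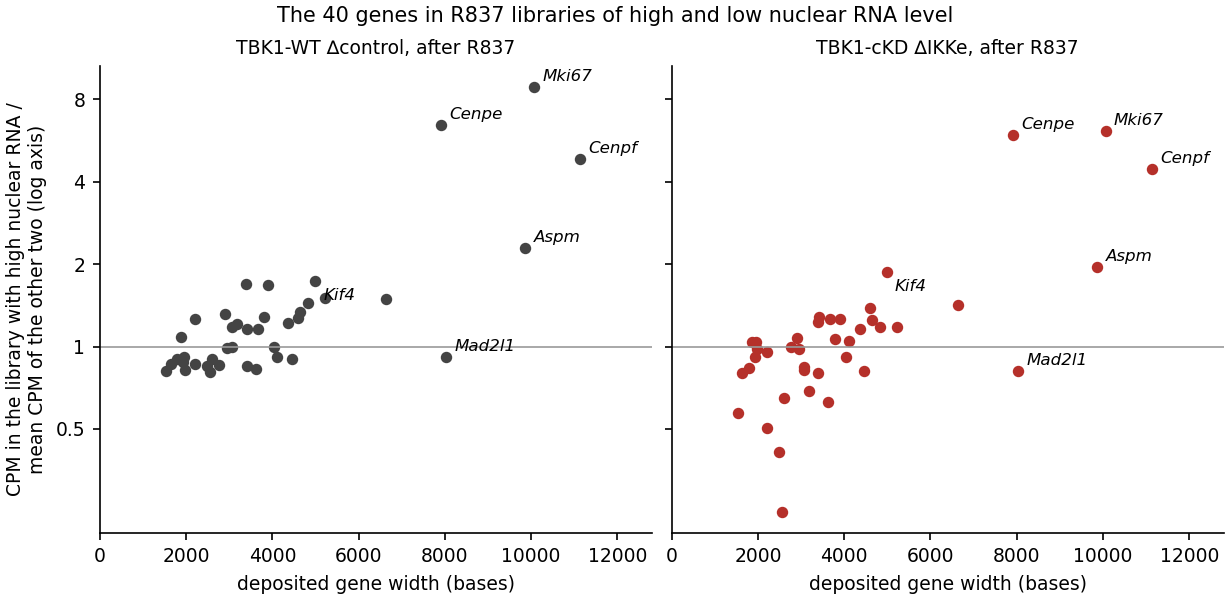
For each of the 40 members, the CPM in the R837 library of high nuclear RNA level divided by the mean CPM of the other 2 libraries of its group, on log axes, against exon width in bases, for TBK1-WT ∆control and the libraries labelled TBK1-cKD ∆IKKe. Mki67, Cenpe and Cenpf stand above 4 in both groups, while most members lie near 1.

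The R837 fall was also present where all libraries compared were of high level. No untreated library was of low level, so a fall within the low level could not be measured. TBK1-WT ∆IKKe and TBK1-cKD ∆control had no treated library of high level, so a fall within the high level could not be measured there. With only libraries of high level, 1 treated against 3 untreated in each of TBK1-WT ∆control and libraries labelled TBK1-cKD ∆IKKe, all 40 members were called lower in both, with medians of -1.88 and -3.22; the single treated library was assumed to vary like the other groups. In that setting Mki67 changed by -1.80 in TBK1-WT ∆control and -1.63 in libraries labelled TBK1-cKD ∆IKKe. Without the treated libraries of high level Mki67 changed by -4.82 and -4.10, which sets treated libraries of low level against untreated ones of high level. Cenpe changed by -1.82 and -3.01 at the high level, and by -4.39 and -5.42 without it. Aspm changed by -2.37 and -4.48, and by -3.42 and -5.30. The size of the fall of these long genes thus differed with the level of the treated libraries, and its direction did not.

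Other cell cycle genes, listed apart from the 40, went the same way with R837 to differing extents. Of 73 other mitosis genes tested, 67 were called lower and 3 higher in TBK1-WT ∆control (median -1.89), with Kif20b (-2.92 ± 0.33) and Kif15 (-2.86 ± 0.33) the largest. All 41 DNA replication genes were called lower in every genotype, with medians of -1.88, -1.98, -2.06 and -2.06, and in TBK1-WT ∆control Pola1 (-3.51 ± 0.12) and Pole (-2.99 ± 0.15) led. Of 20 E2F, MYB and DREAM genes, 14 were lower and 3 higher in TBK1-WT ∆control (median -0.69), led by E2f7 (-3.41 ± 0.20) and Mybl2 (-3.37 ± 0.17). Of 20 cyclin D and CDK inhibitor genes 12 were lower and 5 higher (median -0.44), led by Ccnd1 (-2.74 ± 0.08) and Cdk6 (-1.71 ± 0.11). In libraries labelled TBK1-cKD ∆IKKe against TBK1-WT ∆control after R837, 58 other mitosis genes were lower and 1 higher (median -1.18), beside 30 lower and 2 higher of the replication genes (median -0.47) and a median of -1.68 for the 40 members. The response differed from that of TBK1-WT ∆control in 31 other mitosis genes that fell further and 1 that fell less, and in 7 and 1 replication genes, with medians of -0.68 and -0.22 beside the -1.08 of the members. Whether the lists differ from each other was not tested.

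Summed levels of cell type markers were compared across the same libraries. From untreated to R837-treated libraries the 15 macrophage markers ranged over 24957 to 33674 and 29679 to 37708 CPM, the 15 neutrophil markers over 8.95 to 18.8 and 358 to 1011, the 15 lymphocyte markers over 274 to 311 and 46.8 to 74.5, and the 10 progenitor markers over 39.0 to 65.7 and 2.97 to 8.84. Macrophage markers were the most abundant of these lists in every library. The higher neutrophil sum after R837 was not shared by the whole list. Of 9 tested in TBK1-WT ∆control, 4 were called higher, Lcn2 and S100a8 by the most, and 2 lower, with a median log2 change of 0.05. Dendritic cell markers (10 genes) ranged over 125 to 241 and 114 to 394 CPM, erythroid and megakaryocyte markers (12) over 345 to 516 and 251 to 463 with Hbb-bs at 0, mast cell markers (8) over 1.53 to 4.53 and 0 to 0.773 with Cma1 and Tpsb2 at 0, and stromal markers (12) over 24.9 to 77.1 and 38.0 to 78.2. Beside the lower members in untreated libraries labelled TBK1-cKD ∆IKKe, progenitor markers stood at 39.0 to 43.6 CPM against 62.6 to 65.7 in TBK1-WT ∆control, stromal markers at 24.9 to 34.3 against 64.1 to 75.4 and macrophage markers at 31925 to 33674 against 24957 to 26573. Neutrophil markers summed to 13.5 to 14.4 CPM there against 14.6 to 18.8, with 5 of 9 called lower and 1 higher (median log2 difference -2.46), and to 8.95 to 12.8 in untreated TBK1-cKD ∆control, with 5 called lower (median -2.77). After R837 they summed to 763 to 1011 CPM in libraries labelled TBK1-cKD ∆IKKe against 358 to 369 in TBK1-WT ∆control, with 4 called higher and 4 lower. Their part in the members' differences was not tested.

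Counting leaves some members less certain. The library kit does not mark strand, and in GENCODE M21 11 members share exon bases with another gene, 5 of them by over 10% of their exon bases: Prc1 with Rccd1 (11.1%), Ccna2 with Exosc9 (12.5%), Kif4 with Pdzd11 (15.1%), Ube2c with Tnnc2 (22.8%) and Kif20a with Cdc23 (29.3%). Reads in such bases cannot be told apart. The authors' exons can differ, as for Prc1, with 8225 bases in GENCODE M21 and a deposited width of 3068. These shares therefore need not hold for the deposited counts. Ccnb1, Ccnb2 and Kif4 have named pseudogenes, which took 23, 27 and 69 counts over the 24 libraries against 3506, 23690 and 15786 for the genes themselves, and reads divided between such copies are uncertain.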

How the data were processed

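RNA was sequenced as TruSeq v2 single-end reads of 50 bp in 24 libraries. Per the submitters' processing notes reads were aligned with GSNAP to GRCm38 (counting program and annotation: not given in the sources used here). A count of exonic reads per gene and an RPKM value were deposited by the authors for each library. Dividing each deposited count by its exon width and by the library's mapped total gives the deposited RPKM, so the RPKM total also holds reads outside the gene counts. Symbols and gene coordinates came from GENCODE M21. Genes without a symbol took 0.0187% of counts and stayed in the fit.

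Counts were fitted with edgeR 4.0.16 in R 4.3.3 (filterByExpr with a minimum count of 10 and a minimum total of 15, TMM scaling, 1 mean per group, quasi-likelihood F test, Benjamini-Hochberg over 14681 genes, threshold 0.05), with a common coefficient of variation between replicates of 0.1158 on 16 residual degrees of freedom. CPM values are without TMM, and their logs use an offset of 0.5. DESeq2 1.42.0, other scalings, no filter, a term for or restriction to nuclear RNA level (cutoff 7 on the log2 scale), fits of only the groups compared and leaving out each library were the alternatives. No 2 libraries of a group agreed within sampling noise (chi-square per degree of freedom of 1.93 or more). Replicate 1 of treated TBK1-WT ∆control differed from its companions at 121 and 94.7. Replicate 3 of treated libraries labelled TBK1-cKD ∆IKKe differed from its companions at 118 and 103. The highest value of any other pair was 18.3. The script was tested on simulated data.

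The members, gene lists and tests were chosen with earlier results of these data known, and the 2 tests of whether TBK1 and IKKe differences add up were added after values were seen. The rule for named genes took all 40 members, every library's value for 13 lead members, in each comparison the 3 called members of largest change and the member of smallest change, and 2 called genes of each other cell cycle list. Marker lists are given by summed levels, the neutrophil list also by counts of called genes. Treatment was taken from titles, since the protocol text naming R837 stands on every record.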

Additional observations from a re-analysis of the deposited data

Results flagged for a closer look

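The results singled out here are those in which the R837 response of the libraries labelled TBK1-cKD ∆IKKe differed from that of TBK1-WT ∆control by edgeR's test of the difference itself, with adjusted p under 0.05. It differed for 34 of the 40 members, all with the larger fall in the labelled libraries, and the median difference was -1.08 on the log2 scale. Among the genes given by library, the differences were -1.88 for Cdc20, -1.73 for Plk1, -1.65 for Bub1b, -1.57 for Ccnb1, -1.45 for Kif11, -1.41 for Anln, -0.97 for Ndc80, -0.95 for Aurkb, -0.91 for Top2a, -0.83 for Foxm1 and -0.67 for Cdk1. Aspm at -2.00 and Depdc1b at -1.74 were singled out in the same way. Foxm1 lost its call when any of 6 of the 12 libraries was left out (adjusted p of 0.0514 to 0.0781). No other genotype had a member past that threshold. The groups hold 3 libraries, too few for the search for single libraries far from their group, and the R837 libraries of high nuclear RNA level are described above.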

How the results depend on the processing

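The R837 fall of all 40 members kept its call in all 4 genotypes under every alternative that was run, and the 34 members of larger fall in the libraries labelled TBK1-cKD ∆IKKe stayed within 1.5 times that count. Over single members, 10386 alternative values kept their direction and side of the threshold, 333 passed it newly, 282 lost it and 159 changed direction, 152 of them past the threshold in neither fit. Of the 159, 38 were of Mki67, Cenpe or Cenpf, and in the 121 of other members no value exceeded 0.17 in size. Without scaling beyond the library total, the medians of the R837 responses moved to -2.24, -2.47, -2.64 and -3.47 (in the order TBK1-WT ∆control, TBK1-WT ∆IKKe, TBK1-cKD ∆control, TBK1-cKD ∆IKKe, the last standing here for the libraries so labelled), and those of TBK1-cKD ∆IKKe against TBK1-WT ∆control to -0.70 untreated, -1.88 after R837 and -1.20 for the change of response. With only libraries of high nuclear RNA level, the TBK1-cKD ∆IKKe medians were -3.22 for R837, -1.84 against treated TBK1-WT ∆control and -1.21 for the change of response. Calls in untreated TBK1-cKD ∆control against TBK1-WT ∆control (2) were 6 by DESeq2, 0 with no filter, 23 with nuclear level as a term, 36 with only the groups compared or only high-level libraries and 0 to 2 when single libraries were left out. Those in untreated TBK1-cKD ∆IKKe against TBK1-cKD ∆control (7) were 13, 27 (term), 32 (groups compared), 30 (high level) and 0 to 9. Those in treated TBK1-WT ∆IKKe (2) were 5 without scaling, 9 by DESeq2, 6 with no filter, 0 with only the groups compared, 0 without the high-level R837 libraries and 0 to 7. In treated TBK1-cKD ∆control (33) they were 0 with only the groups compared, and DESeq2 gave 2 for its change of response (0). The TBK1 by IKKe test gave 2 (term), 7 (groups compared) and 5 (high level) untreated (0), and 15 with only the groups compared after R837 (26). Leaving out single libraries moved the R837 median of TBK1-cKD ∆IKKe over -3.23 to -3.06, its untreated median against TBK1-WT ∆control over -0.65 to -0.56, its calls against untreated TBK1-WT ∆IKKe over 15 to 28 and the untreated TBK1 by IKKe median over -0.30 to -0.14. Among values past the threshold in either fit, direction changed for Mki67 in treated TBK1-cKD ∆IKKe against TBK1-WT ∆control without replicate 1 of the latter (1.32, adjusted p = 0.0354), and in the TBK1 by IKKe test after R837 for Cenpe, Cenpf and Mki67 with nuclear level as a term (-1.50, -1.56, -0.30) and without the high-level R837 libraries (-1.43, -1.50, -0.28). The cause was not tested. Counts of calls under these alternatives are given without the share of all genes called in the same fit. No paired analysis was possible because the labels carry no replicate numbers that link libraries across groups. Depth limits the low members most: Ccnb1 had under 10 CPM in every library. Depdc1b stood at 0.0745 CPM in replicate 3 of treated libraries labelled TBK1-cKD ∆IKKe and at a mean of 0.298 in its companions.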
